A study of Homo sapiens with 2 samples.

Results

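The OAS family comprises the oligoadenylate synthetases OAS1, OAS2 and OAS3 and the related gene OASL. It was followed on 2 Affymetrix exon arrays, 1 of MKN45P, a highly metastatic human gastric cancer line, and 1 of MKN45, the line it derives from. Total RNA came from cells grown in serum-containing medium, and the labels name no added agent for either line. The family was chosen with earlier results of these arrays known, and its members were taken as every probeset whose platform annotation gives exactly 1 gene symbol that is OAS1, OAS2, OAS3 or OASL. A probeset is a small group of probes placed at 1 site of a gene. This gave 84 probesets of 286871 with 1 symbol, and 4 genes of 18923: 18 probesets in OAS1, 25 in OAS2, 32 in OAS3 and 9 in OASL. Because each line had 1 array, there was no replicate error and no test was possible. The ranges given are between probesets of a gene, and every difference is between these 2 arrays.

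Oligoadenylate synthetases are interferon-induced enzymes that bind double-stranded RNA and then join ATP into short adenylate chains with an unusual linkage. Those chains act as a second messenger of the antiviral response, at whose end viral and cellular RNA is cut and translation stops. OAS1 is the smallest synthetase, and OAS2 and OAS3 carry additional copies of the same protein unit. Human OASL shares the fold without making the chains, carries ubiquitin-like repeats and is known to aid the RNA sensor RIG-I. In RNA from whole cultures, a difference in the share of cells that express a gene and in RNA per cell cannot be told apart.

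The promoters of OAS1 and OAS3 are shown because only these members matched an entry in the promoter sequences used. Interferon-induced promoters carry repeats of GAAA, the letters that interferon regulatory factors and the ISGF3 complex recognise. Each line gives the 250 bases before the gene's start from RefSeq (build GRCh38.p14, plus strand), at chr12:112906712-112906961 for OAS1 and chr12:112938224-112938473 for OAS3. Capitals mark GAAA followed by any 1 or 2 bases and a second GAAA.
OAS1: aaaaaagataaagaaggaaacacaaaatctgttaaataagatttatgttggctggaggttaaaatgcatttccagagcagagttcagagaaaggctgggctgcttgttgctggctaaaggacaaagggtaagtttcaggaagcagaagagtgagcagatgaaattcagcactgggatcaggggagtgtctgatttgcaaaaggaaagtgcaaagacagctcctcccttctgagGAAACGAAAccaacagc
OAS3: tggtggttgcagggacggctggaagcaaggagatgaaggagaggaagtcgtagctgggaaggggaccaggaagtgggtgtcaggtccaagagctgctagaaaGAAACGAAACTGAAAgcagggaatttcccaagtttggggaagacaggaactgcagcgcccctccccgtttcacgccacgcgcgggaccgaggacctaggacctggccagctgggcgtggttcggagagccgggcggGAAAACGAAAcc

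Both promoters held a closely spaced pair of GAAA repeats just before the start. In OAS1 the match was GAAACGAAA at -17 to -9, counted from the base before the start as -1. In OAS3 the match nearest the start was GAAAACGAAA at -12 to -3. A farther stretch of OAS3 held GAAACGAAA at -148 to -140, overlapped by GAAACTGAAA at -143 to -134. Both strands were searched, and all of these matches lay on the plus strand. Of 35116 promoter windows of the same length, 3.02% held the repeat with 2 bases between, 2.69% held it with 1 base between, and 5.58% held either. The 1-base spacing was added after the sequences were read. TTC, any 3 bases and GAA, the letters of the site bound by STAT dimers, occurred in OAS1 at -168 to -160 and in 6.57% of all windows. A match describes these letters and does not show binding.

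All 4 genes had higher median values in MKN45P than in MKN45, by very different amounts. At each probeset the MKN45 value was subtracted from that of MKN45P, and the gene difference is the median of these over the gene, on the log2 scale. It was 5.02 for OAS2, 2.54 for OAS3, 2.22 for OASL and 0.98 for OAS1, of which those of OAS3 and OAS1 correspond to 5.83-fold and 1.97-fold. The MKN45 medians of OAS2 and OASL, 2.17 and 2.25, lay in the compressed low end of the scale, so no exact fold is given for them. Of the 4 genes, 3 were therefore at least 2-fold higher and OAS1 lay just under 2-fold. Among all 13130 measured genes (at least 4 probesets and a median level of at least 1.92, the median of all probesets), 54.9% had a difference above 0; 602 genes (4.58%) were past 2-fold upward and 157 (1.2%) downward. The median gene difference over all measured genes was 0.03. With only probesets whose mean level was at or above 2.77, the 75th percentile of all probesets, 1218 were past 2-fold upward and 313 downward, of 10645 genes. The family was chosen on this contrast, so its standing against the background is a description only.

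**Figure D1:**
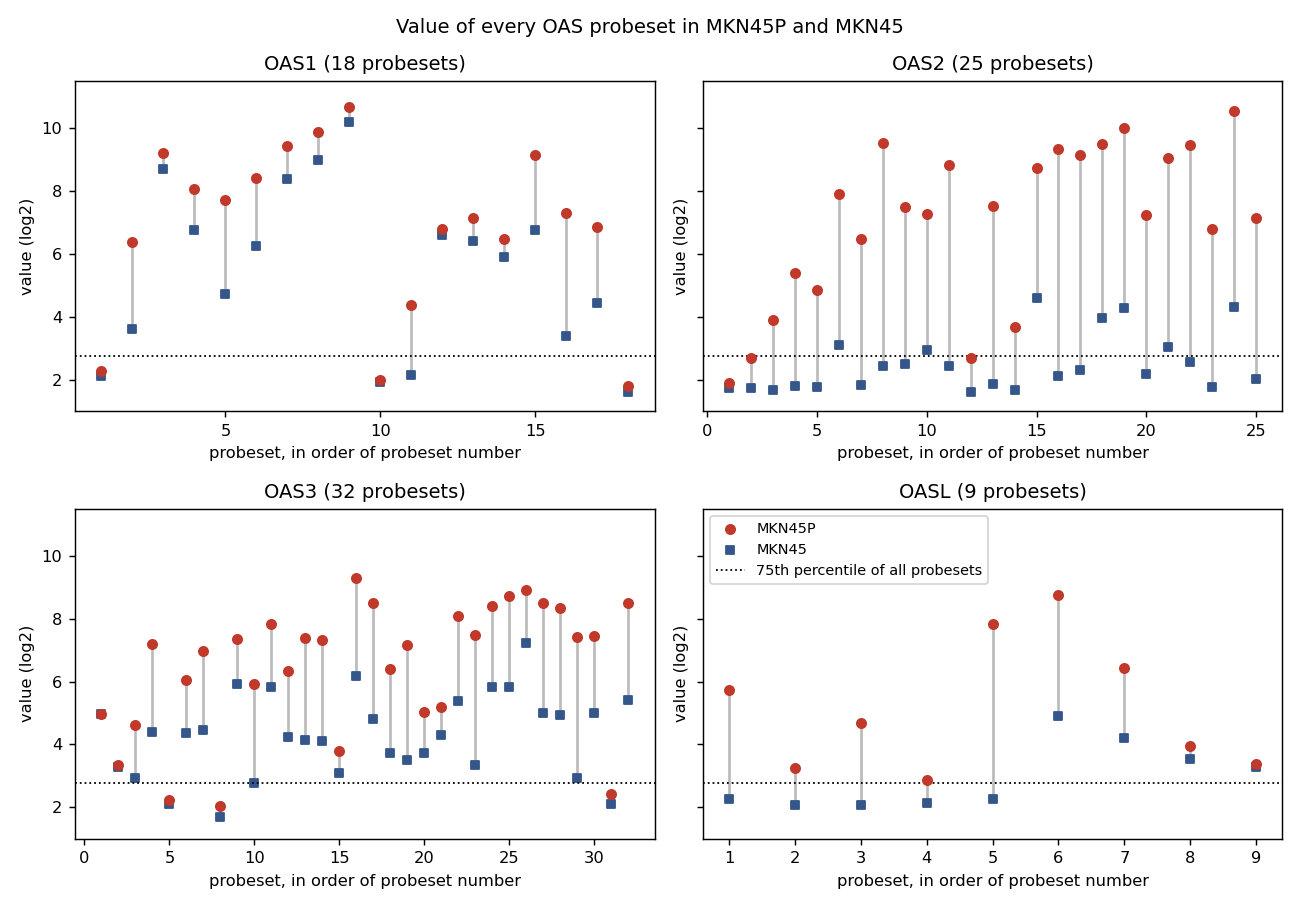
Log2 value (y axis) of each OAS probeset in MKN45P (red circles) and MKN45 (blue squares), in order of probeset number (x axis), with a grey line joining the arrays and a dotted line at the 75th percentile of level over all probesets, 2.77. OAS2 shows long lines from low MKN45 values, whereas OAS1 has several probesets already above 8 in MKN45.

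Counted by probeset, 83 of the 84 had the higher value in MKN45P, and 63 (75%) were at least 2-fold higher. None was 2-fold lower. Over all probesets with 1 symbol, 52.6% had the higher value in MKN45P, 8.82% were past 2-fold upward and 4.06% downward. By gene, 23 of 25 OAS2 probesets were at least 2-fold higher, as were 25 of 32 in OAS3, 6 of 9 in OASL and 9 of 18 in OAS1. At 16-fold the counts were 18 in OAS2, 2 in OAS3, 1 in OASL and 0 in OAS1. A probeset was said to have signal on an array when its value was at least 2.77, the 75th percentile of the mean level of all probesets. With that line, 75 of the 84 had signal in MKN45P and 54 in MKN45, and no probeset had it in MKN45 alone. Of all probesets with 1 symbol, 48.8% had signal in MKN45P and 47.7% in MKN45. The 9 without signal on either array had differences of 0.06 to 1.08.

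OAS2 values were high in MKN45P and mostly below the signal line in MKN45. Its probesets ranged from 1.90 to 10.54 in MKN45P (median 7.49), against 1.61 to 4.58 in MKN45 (median 2.17). Signal was present at 22 of 25 probesets in MKN45P and at 7 of 25 in MKN45. The difference was 5.02 (interquartile range 3.59 to 6.04). Values near the low end are compressed, so the difference in RNA may be larger. At the 7 probesets with signal on both arrays the median difference was 5.53 (4.57 to 5.88).

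The largest OAS2 difference was 7.22 at probeset 3432536, with 9.32 in MKN45P and 2.11 in MKN45. Probeset 3432526 had 9.52 in MKN45P and 2.44 in MKN45, a difference of 7.07, and 3432543 had 9.46 and 2.58 in the same lines, a difference of 6.88. All 3 were without signal in MKN45. The smallest differences were at 3432515, with 1.90 in MKN45P and 1.74 in MKN45 (0.16), and at 3432517, with 2.68 and 1.73 in these lines (0.95). At 3432531 the values were 2.69 in MKN45P and 1.61 in MKN45 (1.08). These 3 were below the signal line on both arrays, so they show little about OAS2 RNA in either line.

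OAS3 had signal at 29 of its 32 probesets on each array, which makes it the member whose difference rests most on values above the low end. It encodes the largest synthetase. Its values ranged from 2.04 to 9.30 in MKN45P (median 7.26), against 1.68 to 7.22 in MKN45 (median 4.34). The difference was 2.54 (interquartile range 1.40 to 3.16), and over the 29 probesets with signal on both arrays it was 2.65 (1.70 to 3.21). The largest was 4.50 at probeset 3432508, with 7.42 in MKN45P and 2.92 in MKN45. Next came 3432498, with 7.50 in MKN45P and 3.34 in MKN45 (4.16), and 3432489, with 8.51 and 4.80 in these lines (3.71).

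The only OAS probeset with a lower value in MKN45P was the first of OAS3 by number, 3432468, with 4.96 in MKN45P and 4.97 in MKN45. The next, 3432470, had 3.33 in MKN45P and 3.30 in MKN45. Both had signal on each array and hardly differed, unlike most of the gene. The third smallest difference, 0.12, was at 3432473, with 2.23 in MKN45P and 2.11 in MKN45, below the signal line in both.

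OASL had the fewest probesets of the 4 genes. Its 9 probesets ranged from 2.87 to 8.77 in MKN45P (median 4.70), against 2.08 to 4.90 in MKN45 (median 2.25). All 9 had signal in MKN45P and 4 had it in MKN45. The difference was 2.22 (interquartile range 0.73 to 3.50). The 4 probesets with signal on both arrays, a restriction chosen after seeing the data, gave 1.31 (0.33 to 2.63), so the size of the OASL difference depends on which probesets are counted.

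Probeset 3474841 of OASL had 7.83 in MKN45P and 2.25 in MKN45, the largest difference in the gene at 5.58. Probeset 3474842 had 8.77 in MKN45P and 4.90 in MKN45 (3.87), and 3474833 had 5.75 and 2.25 in these lines (3.50). At the other end, 3474846 had 3.39 in MKN45P and 3.27 in MKN45 (0.12), and 3474845 had 3.95 and 3.55 in these lines (0.40). Probeset 3474840 had 2.87 in MKN45P and 2.14 in MKN45 (0.73). The first 2 of these low ones had signal on both arrays, as had 3432468 and 3432470 of OAS3.

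OAS1 differed from the other members in having high values in the parental line as well. Its 18 probesets ranged from 1.78 to 10.68 in MKN45P (median 7.23), against 1.61 to 10.19 in MKN45 (median 6.08). Signal was present at 15 probesets in MKN45P and at 14 in MKN45. All 18 had the higher value in MKN45P, and the difference was 0.98 (interquartile range 0.50 to 2.35). Under other ways of scaling or summarising the gene it ran from 0.87 to 1.39, on either side of 2-fold, so OAS1 cannot be placed firmly above or below that line.

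Among the 14 OAS1 probesets with signal in MKN45, the 4 with the lowest MKN45 values had the largest differences. The MKN45 value is itself a term of the difference, and over all 18 probesets the Spearman correlation of the 2 was 0.02; in OAS2 it was 0.58 over 25. The 3 largest in the gene were at probesets 3432462, with 7.31 in MKN45P and 3.39 in MKN45 (3.92), 3432446, with 7.73 and 4.71 in these lines (3.02), and 3432440, with 6.37 and 3.60 in these lines (2.77). The smallest were at 3432453, with 1.99 in MKN45P and 1.92 in MKN45 (0.06), 3432439, with 2.27 and 2.12 in these lines (0.15), and 3432464, with 1.78 and 1.61 in these lines (0.17), all without signal on either array. In bins of the MKN45 value chosen after seeing the data, the 4 probesets from 8 upward differed by 0.50 to 1.05. The 6 probesets between 5 and 8 differed by 0.22 to 2.38, and the 4 between the signal line and 5 by 2.42 to 3.92. The 8 OAS3 probesets between 5 and 8 in MKN45 differed by 1.43 to 3.11, and all 8 were at least 2-fold higher, as against 3 of the 6 in OAS1.

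**Figure D2:**
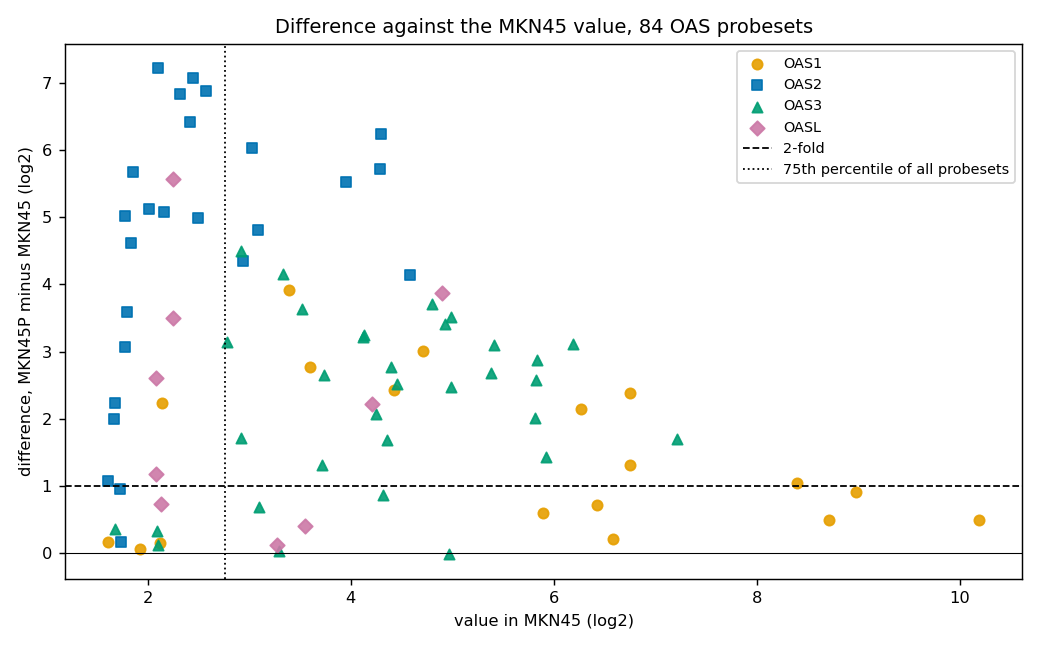
Difference, MKN45P minus MKN45 (y axis, log2), against the MKN45 value (x axis, log2) for the 84 OAS probesets, with the gene shown by colour and shape, a dashed line at 2-fold and a dotted line at 2.77. OAS2 fills the upper left, OAS3 the middle, and the 4 OAS1 probesets above 8 lie between 0.50 and 1.05.

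The arrays ordered the probesets of a gene similarly. The Spearman correlation of the MKN45P values with the MKN45 values over probesets was 0.91 in OAS1 (18 probesets), 0.84 in OAS2 (25), 0.79 in OAS3 (32) and 0.58 in OASL (9). These points share the 2 arrays and are not independent.

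The differences also varied by position. Position was taken from the probeset number, since the annotation gives none. On chromosome 12 the numbers followed RefSeq gene order with a Spearman rho of 1.00 over 360 plus-strand genes and 1.00 over 350 minus-strand genes. Whether the same order holds inside a gene was not tested. When each gene was divided by number into 3 stretches, the median differences of OAS2 were 3.59, 5.01 and 5.62 from the lowest to the highest numbers. Those of OAS3 were 1.68, 2.69 and 2.99. Without the probesets that had signal on neither array, a restriction chosen after seeing the data, OAS2 had 4.62, 5.68 and 5.62 and OAS3 had 1.71, 2.69 and 3.10. Both genes lie on the plus strand in the order OAS1, OAS3, OAS2, so their lowest numbers would be nearest the start. OAS1 had 1.73, 0.70 and 1.55 over all its probesets, and 2.14, 0.91 and 2.38 with the same restriction. Its middle stretch held several of its highest MKN45 values. OASL had 2.61, 3.87 and 0.40, over 3 probesets each. Its numbers fall in the range of the minus-strand genes, where numbers also rose along the chromosome. Its highest numbers would therefore be nearest its start, whereas in OAS2 and OAS3 the lowest would be. If numbers follow position inside a gene, the stretch nearest the start had the smallest median difference in each of OAS2, OAS3 and OASL.

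Departures from the gene difference by 2 or more in log2 units occurred at 16 of the 84 probesets, against 1.11% of all probesets of measured genes. Most measured genes differed little (median 0.03), so that share is not a like reference for genes chosen on this contrast. OAS2 had 7, OAS3 had 5, and OAS1 and OASL had 2 each. The OAS2 probesets departed downward in 5 cases and upward in 2, the OAS3 probesets downward in all 5, and the OAS1 probesets upward in both. In genes with a large difference, probesets without signal depart downward by construction, which covers 6 of the 11 downward departures. The other 5 had signal on at least 1 array, and 3 of them on both: 3432468 and 3432470 of OAS3 and 3474846 of OASL. The only run of 3 neighbouring probesets was the first 3 of OAS2. It held the 2 low probesets 3432515 and 3432517 and also 3432518, with 3.90 in MKN45P and 1.68 in MKN45 (2.23).

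Probesets without a symbol were also looked at where their numbers fall inside or directly beside those of an OAS gene. Of 21 such probesets 2 were at least 2-fold higher in MKN45P, 3432460 among the OAS1 numbers (2.38) and 3474832 before the OASL numbers (3.26). Over all unnamed probesets the share was 0.97%.

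Genes next to the OAS genes mostly did not share the difference. OAS1, OAS3 and OAS2 are neighbours in RefSeq, and OASL lies elsewhere on chromosome 12. Of the 16 nearest measured genes, 4 on each side of the cluster and of OASL, 1 was past 2-fold upward and 0 downward, with a median of 0.0011. Over all measured genes the shares were 4.58% upward and 1.2% downward. Beside the cluster, PTPN11, a phosphatase of growth factor signalling, was at 0.43 (interquartile range -0.11 to 0.76), and DTX1, a Notch pathway ubiquitin ligase, at 0.05 (-0.25 to 0.14). The gene at least 2-fold higher was P2RX4, an ATP-gated ion channel gene that follows OASL among the measured genes. Its median was 5.59 in MKN45P and 2.52 in MKN45, and its difference of 1.81 had a wide interquartile range of 0.06 to 3.48 over 18 probesets. The lowest of the 16 was RITA1, at -0.52.

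**Figure D3:**
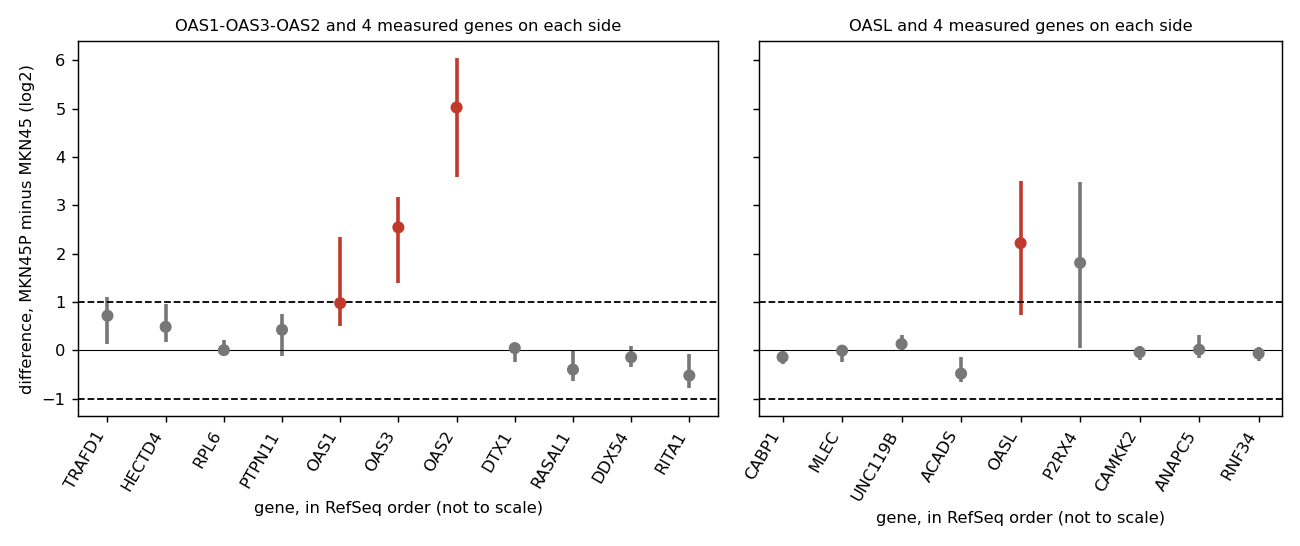
Gene difference, MKN45P minus MKN45 (y axis, log2; points are medians over probesets and bars interquartile ranges), for the OAS genes (red) and 4 measured genes on each side (grey) in RefSeq order (x axis). The 4 OAS genes lie at 0.98 to 5.02, and of the 16 neighbours P2RX4 alone is past 2-fold (dashed lines).

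Other sensors and effectors of double-stranded RNA and cytosolic DNA had smaller differences than OAS2, but not than every OAS gene. The largest of them lay above OAS3 (2.54) and OASL (2.22), and all 5 past 2-fold lay above OAS1 (0.98). Of 16 measured genes in that list, 15 were higher in MKN45P by some amount, 5 of them by 2-fold or more, and 0 were lower by 2-fold; the list median was 0.83. The count past 2-fold was 8 with the mean over probesets, and 9 (median 1.38) with only probesets of mean level at or above 2.77. Over all measured genes 54.9% were higher in MKN45P and 4.58% were past 2-fold upward. With that level filter, 1218 of 10645 genes were past 2-fold upward. A probeset can pass the filter through a high value in MKN45P alone, so the filtered figures favour larger differences. The largest was EIF2AK2, the kinase PKR, which blocks translation on binding double-stranded RNA, at 2.85 (interquartile range 1.32 to 3.22 over 25 probesets). It was followed by the RIG-I relative DHX58 (1.52), the zinc finger antiviral protein gene ZC3HAV1 (1.32), the RNA-editing enzyme gene ADAR (1.24) and the DNA sensor gene IFI16 (1.11). CGAS, which encodes the sensor of cytosolic DNA with a fold like that of the OAS enzymes, was at 0.82, and the nucleic acid sensor gene ZBP1 was lowest at -0.04.

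A short list of genes grouped around the adenylate chain pathway had 5 measured genes, of which 4 were within 2-fold. The shares past 2-fold over all measured genes were 4.58% upward and 1.2% downward, so counts in so short a list show little. Being listed does not mean that a gene acts on the chains, and SAMHD1 acts on nucleotide pools. ABCE1, a ribosome recycling factor gene, was at 0.30 (0.01 to 0.44 over 8 probesets). CNP, a cyclic nucleotide phosphodiesterase gene, was also at 0.30. In this list SAMHD1, which lowers nucleotide pools and limits viral replication, was the 1 at least 2-fold higher, with 7.19 in MKN45P and 3.47 in MKN45 and a difference of 2.92 (1.74 to 3.44). The median was 0.30, and ENPP1, a phosphodiesterase, was lowest at -0.04.

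Among interferon receptors, signalling genes and regulatory factors, 6 of 22 measured genes passed 2-fold upward and 0 downward, with a median of 0.37. Over all measured genes the shares were 4.58% upward and 1.2% downward. The DNA-binding complex ISGF3, which drives OAS transcription after type I interferon, contains the products of STAT2 and IRF9. STAT2 was at 7.76 in MKN45P and 3.87 in MKN45 (difference 3.06), and IRF9 at 6.31 and 2.96 in these lines (2.30). The transcription factor genes IRF1 (2.15) and IRF7 (1.03), the receptor chain gene IFNAR2 (1.12) and the phosphatase gene PTPN6 (1.70) were the others past 2-fold. The receptor chain gene IFNAR1 was at 0.14, the kinase gene TYK2 at -0.02 and the feedback inhibitor gene SOCS1 lowest at -0.26. USP18 was at -0.20 (interquartile range -0.32 to 0.66) over 4 probesets. Its median levels went the other way, 4.30 in MKN45P and 3.84 in MKN45, so its direction depends on the summary. Of 13 interferon genes with a symbol, 1 counted as measured, IFNA8, at 1.95 in MKN45P and 2.20 in MKN45, both below the signal line. Interferon alpha genes are near-identical, so that value is uncertain. IFNB1, the interferon beta gene, had medians of 1.70 in MKN45P and 1.69 in MKN45. The medians of all 13 were 1.60 to 2.05 in MKN45P, against 1.62 to 2.20 in MKN45.

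All 23 measured members of the list of other antiviral interferon-induced genes were higher in MKN45P, 15 of them by 2-fold or more. Over all measured genes these shares were 54.9% and 4.58%. The list median was 1.67. That list, like the OAS family, was chosen with results of these arrays known. Its 6 largest values were those of IFIT3 (6.07), IFITM1 (5.31), IFI27 (5.01), IFIT1 (4.76), XAF1 (4.05) and DDX60 (3.77), beside 5.02 for OAS2. Except for IFITM1 (2.98), the MKN45 medians of these genes were below the signal line, so the order among them and OAS2 is not determined. The lowest was BST2, the membrane tether of virus particles, at 0.20, with a wide interquartile range of -0.01 to 2.61.

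**Figure D4:**
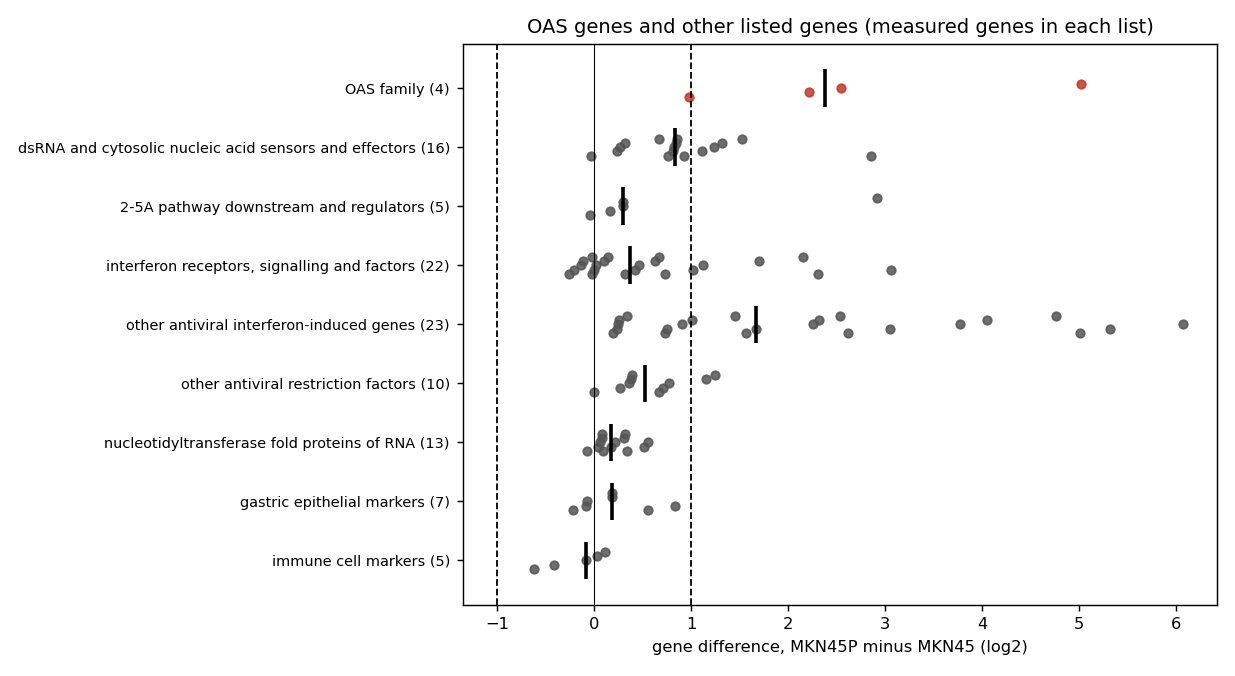
Gene difference, MKN45P minus MKN45 (x axis, log2), of the 4 OAS genes (red) and of the measured genes in the other lists (grey, number in brackets), with black bars at list medians and dashed lines at 2-fold. The OAS genes lie at 0.98 to 5.02, and the medians of the interferon-induced and sensor lists are 1.67 and 0.83.

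The listed gastric epithelial markers had medians above 2.77 in both lines. Those of the immune markers lay below it, except for NKG7 in MKN45 (3.12). Of 8 gastric epithelial markers 7 were measured, between -0.21 and 0.83, and none passed 2-fold. CEACAM5 had medians of 9.68 in MKN45P and 10.01 in MKN45, and KRT8, the lowest, had 3.13 and 3.31 in these lines. KRT19, with 2 probesets, did not count as measured and was at -0.76. Of 12 immune cell markers 5 were measured, between -0.62 and 0.12, and none passed 2-fold. As 4.58% of all measured genes passed it upward and 1.2% downward, lists this short would mostly hold none. The medians of these 5 immune markers were 2.01 to 2.50 in MKN45P and 1.98 to 3.12 in MKN45, and PTPRC, CD3E and CD14 did not count as measured.

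The genes closest to each member in their pair of median levels were sought by Euclidean distance over the 2 arrays among measured genes with at least 8 probesets. For OAS2 they were SERPING1 (distance 0.11), IFI27 (0.30) and IL20RB (0.64), and for OASL they were FXYD4 (0.16), DHX58 (0.25) and PTPDC1 (0.25). OAS3 was closest to UBE2A (0.17), EEF1A2 (0.19) and ADAM17 (0.39). OAS1 was closest to SRPRB (0.07), CTSZ (0.07) and LCLAT1 (0.08). Likeness over 2 arrays means no more than similar medians.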

How the data were processed

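The authors deposited log2 values for 877986 probesets on each array; the log2 scale was read from the values, which reach 13.45 in MKN45P and 13.48 in MKN45. Partek and the hg18 build are named in the submitters' processing notes. How background and normalization were handled is not given in the sources used here; the values were used as deposited. Members and lists were chosen with earlier results of these data known. The analysis kept probesets with exactly 1 symbol and took each gene's median difference over them. RefSeq of GRCh38.p14 served for current names, gene order and promoter sequence. Of the members, 2 matched a promoter entry. Named were all members, their 3 largest and 3 smallest probesets, runs of 3 or more departing neighbours, listed genes past 2-fold (the 6 largest where over 10) and the lowest, and a few others chosen after their values were seen. Related genes share sequence, so cross-binding between OAS genes is possible and was not tested. The labels do not say how many cultures each array represents, and the number of arrays limits the precision. Python 3.11.15 was used with statsmodels 0.14.6, scipy 1.17.1, pandas 2.3.3 and numpy 2.4.6; the gene step was tested on simulated data. Alternatives were other scalings, summaries and filters.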

Additional observations from a re-analysis of the deposited data

Results flagged for a closer look

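Of 21 probesets without a symbol whose numbers fall inside an OAS gene's run of numbers or directly beside it, 2 were at least 2-fold higher in MKN45P, against 0.97% of all 587978 unnamed probesets. Probeset 3432460, numbered among those of OAS1, had 6.52 in MKN45P and 4.14 in MKN45, a difference of 2.38 in log2 units. Probeset 3474832, numbered directly before the first OASL probeset, had 5.62 in MKN45P and 2.35 in MKN45, a difference of 3.26. Both were singled out as signal outside the named probesets that was higher than in the parental line. The other 19 differed by -0.18 to 0.70, and 16 of them were below 2.77 on both arrays.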

How the results depend on the processing

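No paired analysis was possible because each line had 1 array. OAS2 and OAS3 kept their direction and stayed past 2-fold under every alternative run, at 4.59 to 5.53 and 2.24 to 2.92. OAS1 moved across 2-fold: its difference was 1.39 with the mean over probesets, 1.15 as the difference of the median levels, 1.31 with either signal filter, and 1.18 with signal required on both arrays, a setting chosen after seeing the data. With quantile normalization it was 0.87, with loess 0.87 and with median centring 0.996. OASL was 1.31 over the 4 probesets with signal on both arrays. The counts of genes past 2-fold were 1218 higher and 313 lower of 10645 genes, against 602 and 157 of 13130, when only probesets with a mean at or above 2.77 were used. OAS1 had 1 probeset departing by 2 or more with the mean as gene centre, and 1 with the centre taken over probesets with signal. Of 160 alternatives for the lists, 8 moved. Sensor genes 2-fold higher numbered 8 with the mean and 9 with the signal filter (median 1.38). With that filter, the median of other interferon-induced genes was 3.83, restriction factors had 5 genes 2-fold higher (median 1.05), and 1 immune marker was 2-fold lower. A probeset can pass that filter through a high value on 1 array alone, which favours large differences by construction. The filtered figures are therefore not better estimates of the differences. With at least 10 probesets, 1 restriction factor was 2-fold higher. Apart from the filters' choice of probesets, the causes were not tested. None of the alternatives run reversed a direction that was past 2-fold. Most MKN45 values of OAS2 were below the signal line, which limits what its difference can show.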

Other observations

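Genes of RNA enzymes and related proteins that share the nucleotidyltransferase fold with the OAS proteins did not pass 2-fold. Only 4.58% of all measured genes passed it upward and 1.2% downward, so this does not set a list of this size apart. Of 13 measured, 12 had a positive difference, with a median of 0.18 against 0.03 over all measured genes, of which 54.9% had a positive difference. The largest was TUT4, a terminal uridylyltransferase, at 0.55, and the lowest was ZFR at -0.07. CGAS is counted among the sensors.

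Of 10 measured antiviral restriction factors outside the other lists, 9 had a positive difference, with a median of 0.53. Over all measured genes 54.9% had a positive difference and 4.58% were at least 2-fold higher. In this list 2 genes were at least 2-fold higher. These were the cytidine deaminase gene APOBEC3C, with 3.43 in MKN45P and 2.18 in MKN45 (1.25 over 4 probesets), and the RNA helicase gene MOV10, with 4.46 in MKN45P and 3.19 in MKN45 (1.15 over 32 probesets). APOBEC3 genes are close relatives, so the first value is uncertain. The lowest was TASOR, at -0.0018.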
